A study of Eohaustorius estuarius with 16 samples.

Results

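The transcripts described here are 150 contigs of the burrowing amphipod Eohaustorius estuarius whose signal was spread much more widely among cyfluthrin-exposed samples than among controls. They were chosen by their spread. Of the 8507 contigs on the array, each measured by 1 probe, 6062 were well above background in all 8 control samples and could be chosen. Among these, 675 had a standard deviation (SD) of at least 0.8 log2 units over the 8 exposed samples, and the members are the 150 of those with the highest ratio of exposed SD to control SD. They make up 2.47% of the contigs that could be chosen. The spread itself is therefore a description with no test, and the results below concern which exposed samples departed from the controls, in which direction, and which transcripts did so together.

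The study compared microarray results between laboratories, and these are the whole-body samples handled by the laboratory labelled B. Amphipods spent 10 days in sediment to which either cyfluthrin (1.6 micrograms per kilogram, nominal) or the solvent without it had been added. There were 8 exposed and 8 control samples, each hybridised to its own one-colour array, and each is named below by its group and its replicate number. The labels give neither the number of animals in a sample nor whether samples came from separate aquaria, nor the sex or age of the animals, so that part of the spread between samples may be technical. In whole-body RNA, fewer cells of a type and less RNA per cell cannot be told apart.

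Cyfluthrin belongs to the pyrethroids, insecticides that hold voltage-gated sodium channels open and so cause repetitive firing of nerves. Crustaceans are among the animals most sensitive to pyrethroids, and these compounds bind strongly to sediment particles, where a burrowing amphipod meets them. Sediment tests with this species usually score survival, whereas an array reports the RNA of every tissue at once. The files pair probes with contig numbers of a transcript assembly and with no gene names or sequences, so that the members are described by contig number, without function.

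All signals are log2 intensities relative to the 75th percentile of the same array, so that a value of -1 means a signal 2-fold under that percentile. The 75th percentile itself lay between 8.72 and 9.41 on the log2 scale in controls and between 8.92 and 9.98 in exposed samples. Between 76.0% and 85.3% of probes were well above background on the control arrays and between 78.2% and 86.2% on the exposed arrays, exposed sample 7 having the lowest share of its group. Replicates 1 to 4 of both groups shared slide 1 and replicates 5 to 8 shared slide 2.

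The members' exposed SD had a median of 1.06 log2 units and reached 5.04, against a median of 0.41 over all contigs that could be chosen. Their ratio of exposed to control SD ran from 2.31 to 9.36 with a median of 3.06, where the median contig had a ratio of 1.34. The members were not steadier than other contigs among controls. Their control SD had a median of 0.37, against 0.30 for all contigs that could be chosen, and 116 of the 150 lay above the latter. For 27 members the control SD was itself at least 0.8, and 25 of these belonged to the largest subgroup described below. They are thus called more variable among exposed samples, since variation restricted to the exposed samples did not hold for all of them.

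**Figure D1:**
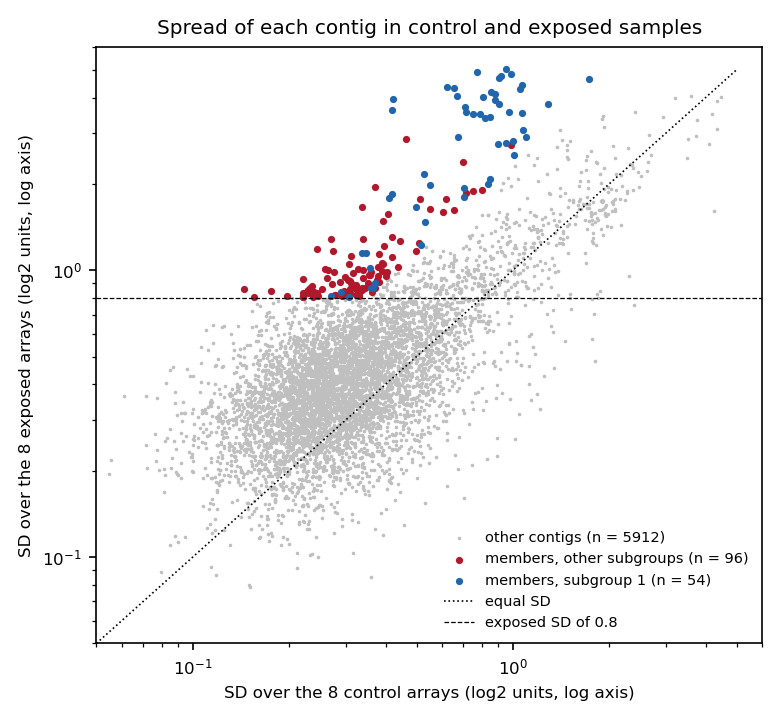
Spread of each contig among the 8 control arrays (horizontal, SD in log2 units, log axis) and among the 8 exposed arrays (vertical, same unit, log axis). Of the 6062 contigs that could be chosen, the 150 members are coloured, the largest subgroup in a colour of its own, and the others are grey. The members lie above the exposed SD of 0.8 and at ratios from 2.31 to 9.36, and they cover control SDs from 0.14 to 1.73.

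The 2 thresholds cut through a continuous range. Contigs 1221 and 5584 were the last to enter, with ratios of 2.34 and 2.31, and contigs 1712 and 5308 were the first left out, with 2.31 and 2.29. On the exposed SD, contigs 7902 and 3560 lay just inside at 0.803 and 0.804 and contigs 484 and 3722 just outside at 0.80 and 0.797. A further 521 contigs had a ratio high enough to enter but an exposed SD under 0.8. With the groups exchanged, on contigs well above background in all exposed samples, 37 of 6267 had a control SD of at least 0.8 and a ratio of control to exposed SD of at least the members' lowest, 2.31. That bound was set by the members' own list and not by a list of equal length, so the counts are not alike. With both bounds kept and where a contig had to be well above background on all 16 arrays, 98 passed with the larger spread in exposed samples and 25 with the larger spread in controls, of 5914. The members covered the whole range of brightness, with 52, 53 and 45 in the dim, middle and bright of 3 equal classes by control signal.

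Departures were counted where an exposed value lay outside the range of the 8 controls and more than 1 log2 unit from their mean, and a contig is called low or high in that sample by the sign. All 150 members had at least 1 such departure, which follows largely from how they were chosen. There were 319 low departures and 140 high ones. The filter asked for signal well above background in controls only. A contig could thus fall to background in exposed samples, while one dim in controls could not enter. That favours low departures, and nothing is read from these counts. On at least 1 sample each, 49 members were only low, 21 only high and 80 were high in one exposed sample and low in another. The members thus did not share a common direction. The number of departing samples was 1 for 31 members, 2 for 41, 3 for 25, 4 for 14, 5 for 19 and 6 for 20, and no member departed in 7 or 8.

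The departures were concentrated in few exposed samples. Exposed sample 7 held the most low members, 88, where 9.62% of all contigs that could be chosen were low. Exposed sample 8 had 68 low members against a background of 10.9%, and exposed sample 5 had 60 against 6.63%. In exposed sample 3, 42 members were low (background 3.91%), in exposed sample 4 there were 26 (4.78%), in exposed sample 2 there were 20 (4.59%), in exposed sample 1 there were 11 (2.71%) and in exposed sample 6 there were 4 (2.1%). High members were most frequent in exposed sample 2, which held 61 where the background was 4.44%. The other high counts were 22 in exposed sample 6 (2.41%), 16 in sample 8 (6.07%), 14 in sample 5 (3.86%), 10 in sample 1 (5.21%), 9 in sample 4 (3.07%), 5 in sample 3 (3.04%) and 3 in sample 7 (4.47%). Since the members were selected on these same values, nothing is read from the distance between their counts and the background.

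**Figure D2:**
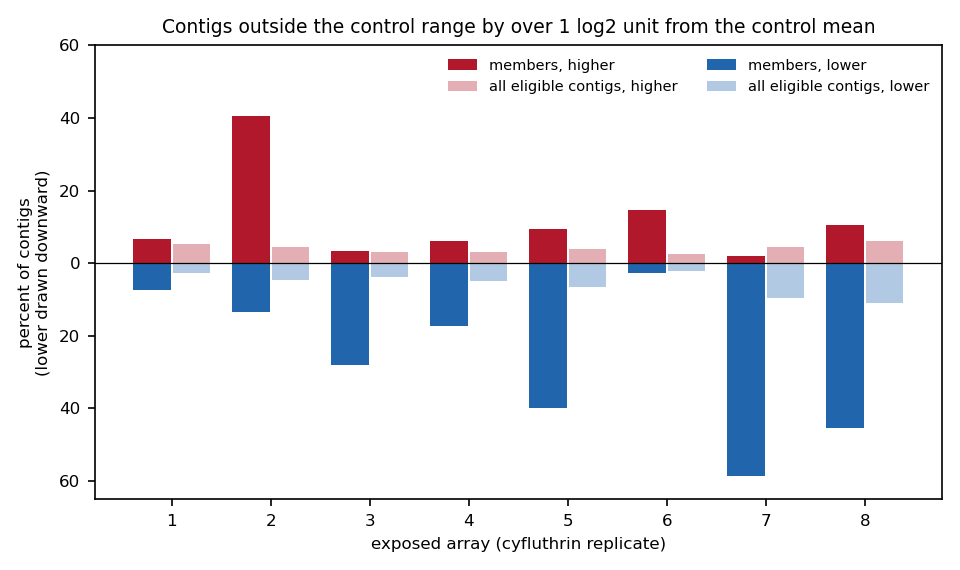
Contigs outside the control range and over 1 log2 unit from the control mean, in each of the 8 exposed samples (horizontal), as a percentage (vertical) of the 150 members and of the 6062 contigs that could be chosen, high and low shown apart. Low members peak in exposed samples 5, 7 and 8, with 60, 88 and 68 members, and high members in exposed sample 2, with 61.

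Many members passed the threshold on exposed SD only with their most extreme sample included. Without the exposed sample farthest from the exposed median, 90 of the 150 had an exposed SD under 0.8, and 53 had a ratio under 2. Leaving out the farthest value lowers nearly any SD, so these counts do not show that 1 sample alone made the spread. That farthest sample was exposed sample 7 for 39 members, samples 2 and 5 for 32 each, sample 8 for 20, sample 1 for 10, samples 3 and 4 for 7 each and sample 6 for 3. The arrays with the most departures also included the brightest ones. The log2 75th percentiles of exposed samples 5, 2 and 8 were 9.98, 9.95 and 9.68, above every control, whereas sample 7 had 9.34. The part of array brightness in the departures was not tested.

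Most departures were seen on both spots of a contig where it had 2. Of the members, 100 had 2 spots on each array, 49 had 1 and 1 had 11. Among 304 departures of members with 2 spots, 291 (95.7%) were departures on each spot alone, and the SD between the 2 spots had a median of 0.065 log2 units. Of the 100 members with 2 spots, 92 had a ratio over 2 on each spot separately. The mean of the 2 spots chose the members, and the 2 spots of an array measured the same sample. Their agreement is thus a description and says nothing about differences between samples or arrays. Among the leading members of the subgroups described below, contigs 4465, 5940, 592, 5149 and 6849 had 1 spot. Agreement between spots could not be checked for these. Of the spots of the largest subgroup, between 21.6% and 29.5% lay in each of 4 equal sections of the array. For all contigs that could be chosen, the shares were 24.8% to 25.2%. Local differences on the arrays were not tested.

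Many of the low values were not well above background. In exposed sample 7, 41 members (27.3%) were not well above background, against 1.63% of all contigs that could be chosen. The same held for 34 members (22.7%) in each of exposed samples 5 and 8, against 0.643% and 0.693%. In all, 98 members were well above background on all 16 arrays and 52 were not on at least 1 exposed array. For a value not well above background only a bound is known, and folds are then given as at least so many, against the dimmest signal well above background on that array or the spot's own signal, whichever was higher.

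When the members were grouped by their correlation over the 8 exposed samples alone (average linkage, distance 0.5), 8 subgroups of 5 or more members held 139 of the 150. They are numbered by size and differed in the exposed samples that set them apart.

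**Figure D3:**
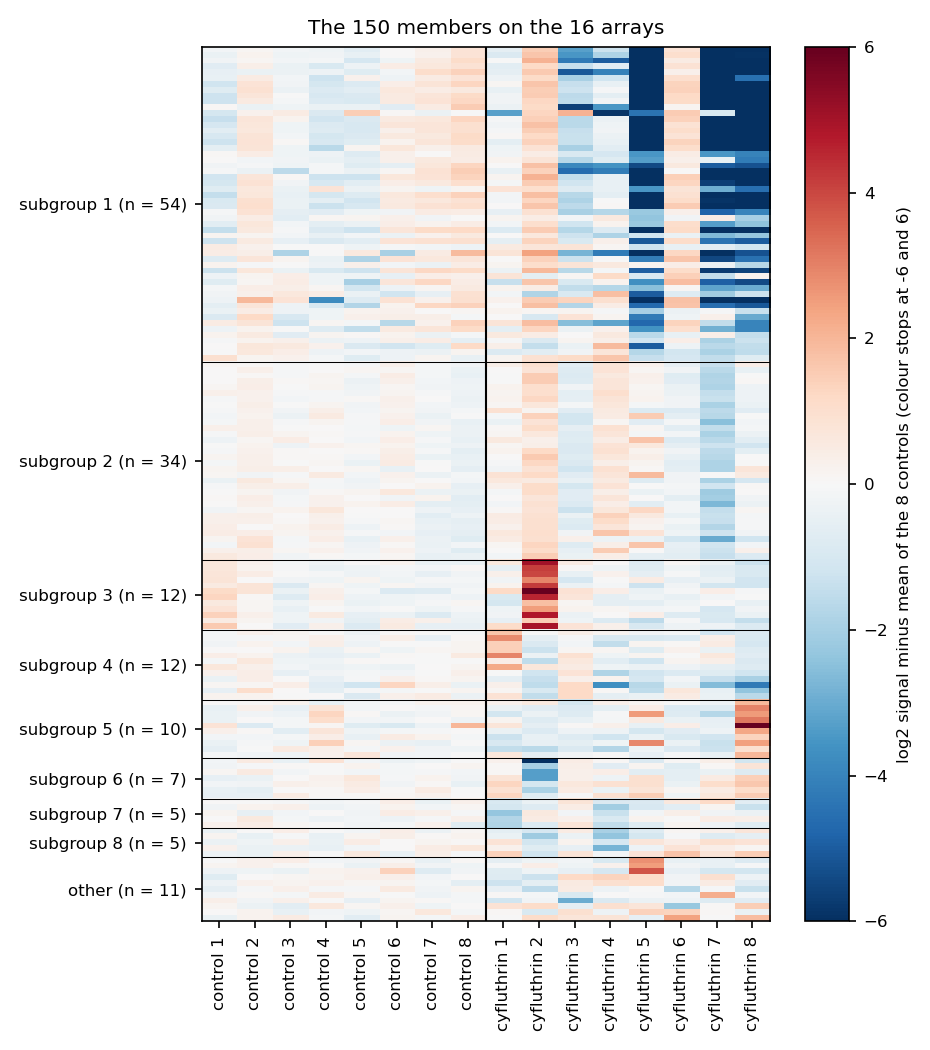
Signal of each of the 150 members (rows, by subgroup) on the 8 control and 8 exposed arrays (columns), as log2 units from the mean of the 8 controls, with the colour scale cut at its ends. Subgroup 1 is low in exposed samples 5, 7 and 8, subgroup 2 low in 7 and high in 2, and subgroup 3 high in exposed sample 2.

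Subgroup 1, with 54 members, was low in exposed samples 5, 7 and 8. The median departure from the control mean was -5.26, -5.55 and -5.33 log2 units there, and -4.99, -4.59 and -4.90 with values not well above background set to their bound. Of the 54 members, 52 were low in sample 5, 45 in sample 7, 52 in sample 8 and 43 in all 3 of them. The depth of these low values differed within the subgroup. In 31 members the signal was over 4 log2 units under the control mean in all 3 samples, in 13 it was so in none of them, and in 10 in 1 or 2 of them.

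The other 5 exposed samples differed among themselves. Exposed sample 3 was moderately low, with a median of -1.38 and 34 low members. Exposed samples 2 and 6 were high, with medians of 1.29 and 0.96 and with 31 and 19 high members. Exposed sample 1 had a median of -0.10 with 1 low member. Exposed sample 4 had a median of -0.35, with 14 low and 4 high members and departures down to -5.89. Of the 43 members low in all of samples 5, 7 and 8, 30 were also high in sample 2 or 6. With samples 5, 7 and 8 set aside, the exposed SD had a median of 1.22 and lay above the control SD in 50 of the 54 members. The other 5 exposed samples also helped choose the members, so these values are a description from which nothing is read.

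Contig 4465 had the highest ratio of all members, 9.36. Its control values had a lowest of -0.49, a median of 0.07 and a highest of 0.94. In exposed samples 1 to 8 it measured -0.37, 1.60, -3.09, -1.13, -7.99, 0.95, -7.38 and -7.30. Exposed samples 5, 7 and 8 were not well above background, at least 125-fold, 83.8-fold and 127-fold under the control mean, while samples 3 and 4 were also below every control and samples 2 and 6 above every control. Exposed sample 1 lay inside the control range.

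Contig 6420, second in ratio at 8.60, had controls between 0.39 and 1.64 with a median of 0.73. Its exposed values were -0.02, 2.47, -2.68, -1.02, -6.19, 1.82, -6.92 and -5.10 in samples 1 to 8. All 8 lay outside the control range, 2 above it and 6 below it. Sample 8 was well above background and 60.8-fold under the control mean, so the value there was measured and not a bound. Contig 1540, picked after its values were seen because it held the lowest departure of any member, was at least 840-fold under the control mean in exposed sample 5, at -8.03 against controls between 2.14 and 4.27.

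Members of this subgroup were also correlated among controls. The controls had no part in the clustering, but their SD and background flags helped choose the members, so the correlation is a description. The median correlation between pairs of its members over the 8 controls was 0.50, against 0.06 between pairs of all contigs that could be chosen. In controls the median departure ran from -0.64 in control 5 to 0.91 in control 8. The control SD of the subgroup had a median of 0.76. These correlations are over the same arrays and share their scaling and slides. Another 45 contigs outside the members followed the subgroup's mean profile over the exposed samples with a correlation of at least 0.9, and their exposed SD had a median of 0.43. Of all contigs that could be chosen, 112 were low in each of exposed samples 5, 7 and 8, of which 45 were members and 67 were not.

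Subgroup 2, with 34 members, was low in exposed sample 7, where the median was -1.62 and 33 of 34 members were low. It was highest in exposed sample 2, with a median of 0.98 and 16 high members, and 15 members were both low in sample 7 and high in sample 2. Exposed sample 4 had a median of 0.71 with 4 high members and sample 5 one of 0.18 with 5, and exposed sample 3 lay at -0.72 with 5 low members. The changes were smaller than in subgroup 1 and were almost all measured above background, as 32 members were well above it on all 16 arrays. The pair correlation over controls had a median of 0.60.

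Contig 6960 was the leading member of subgroup 2, with a ratio of 5.18. Its controls lay between -3.46 and -2.96 with a median of -3.28, and exposed samples 1 to 8 measured -2.90, -2.28, -3.89, -2.45, -2.97, -3.74, -4.65 and -2.85. Sample 7 was 2.65-fold under the control mean and samples 3 and 6 were also below all controls, whereas samples 1, 2, 4 and 8 lay above them, sample 2 the highest. Contig 8456, with a ratio of 4.12, had controls from -0.38 to 0.28 with a median of 0.02. Its exposed values were 0.03, 0.83, -0.77, 0.83, 0.11, -0.22, -1.60 and -0.46. The order was again highest in samples 2 and 4 and lowest in sample 7, here 3.03-fold under the control mean. This profile was not limited to the members, as 169 other contigs correlated with it at 0.9 or more over the exposed samples, 165 of them with an exposed SD under 0.8.

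**Figure D4:**
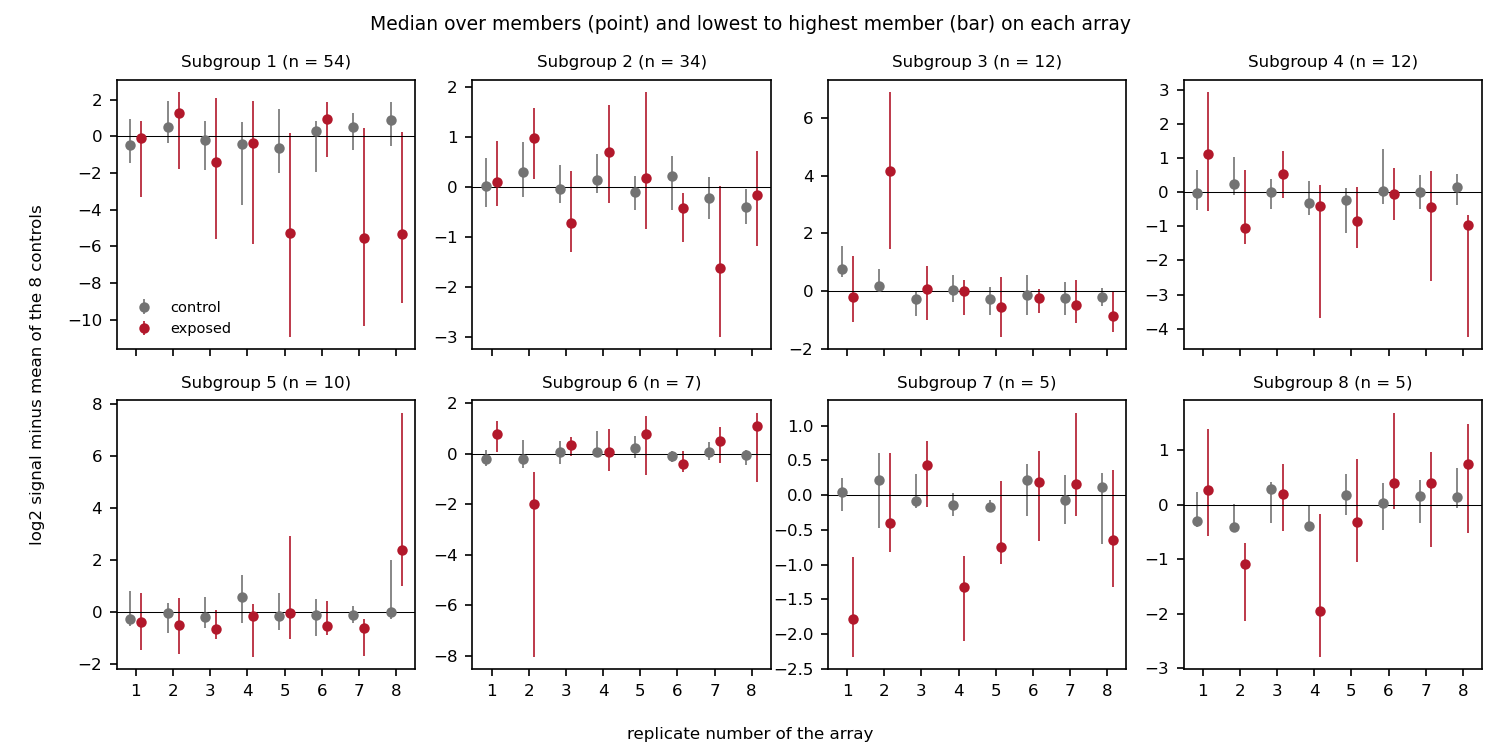
Median over the members of each of the 8 subgroups of the log2 signal minus the mean of the 8 controls (vertical), by replicate number (horizontal), for control and exposed samples. Subgroup 1 reaches -5.26, -5.55 and -5.33 in exposed samples 5, 7 and 8, subgroup 3 reaches 4.17 in exposed sample 2 and subgroup 5 reaches 2.39 in exposed sample 8.

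Subgroup 3, with 12 members, was high in exposed sample 2 and had no second high sample. The median there was 4.17 log2 units, or 18.0-fold over the control mean, and all 12 members were high. The other 7 exposed samples had medians between -0.86 and 0.09, with 4 low members in sample 8 and at most 2 low members in any other. All 12 members had an exposed SD under 0.8 without their farthest sample. Among controls, control 1 was the highest, with a median of 0.76, and the pair correlation over controls had a median of 0.71.

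Contig 5319 had controls between -3.70 and -2.60 with a median of -3.35. Exposed samples 1 to 8 measured -2.72, 1.75, -2.81, -3.26, -4.09, -3.21, -3.67 and -4.58. Sample 2 was 33.0-fold over the control mean, samples 5 and 8 lay below all controls and the other 5 exposed samples lay inside their range. Contig 5084 had controls between -1.81 and -0.72 with a median of -1.51, and its exposed values were -1.94, 2.74, -1.35, -1.69, -2.14, -1.69, -2.03 and -2.31. It was 17.9-fold over the control mean in sample 2 and slightly below all controls in samples 1, 5, 7 and 8, and its exposed SD was 0.32 without that sample, close to the control SD of 0.34. Contig 1686, picked after its values were seen as the highest in sample 2, was 119-fold over the control mean there, at 3.54, against -3.75 to -2.14 in the other exposed samples. It had a single spot on each array.

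Subgroup 4, with 12 members, had a mixed profile. Exposed sample 1 was high, with a median of 1.13 and 6 high members, while samples 2 and 8 were low, with medians of -1.06 and -0.97 and 6 low members each. Sample 5 had a median of -0.84 with 4 low members, samples 4 and 7 had 3 low members each, and sample 3 had 2 high members. The subgroup was looser than the first 3, with a median pair correlation of 0.61 over exposed samples and of 0.22 over controls. Contig 5940 had controls between -4.68 and -4.12 with a median of -4.40. In exposed samples 1 to 8 it measured -2.73, -4.43, -4.05, -4.24, -4.60, -4.50, -5.54 and -5.23, of which sample 7 was not well above background. Sample 1 was 3.17-fold over the control mean and sample 3 marginally above all controls, while samples 7 and 8 lay below them. Contig 3758 had controls between -3.53 and -2.68 with a median of -3.05, and exposed values of -0.20, -3.60, -3.12, -3.95, -3.98, -3.86, -2.69 and -3.97. Sample 1 stood 7.21-fold over the control mean, and samples 2, 4, 5, 6 and 8 lay below all controls.

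Subgroup 5, with 10 members, was high in exposed sample 8, with a median of 2.39 log2 units, or 5.23-fold over the control mean, and 9 high members. All other exposed samples had medians between -0.67 and -0.06, with 4 low members in sample 7 and 2 high members in sample 5. Control 4 was the highest control, with a median of 0.56. Contig 592 had controls between 0.61 and 1.28 with a median of 1.08, and exposed samples 1 to 8 measured 1.29, 1.59, 0.01, 1.36, 1.16, 1.03, 0.73 and 3.0. It was 3.86-fold over the control mean in sample 8, above all controls by less in samples 1, 2 and 4, and below them in sample 3. Contig 6066 had controls between -0.76 and 0.50 with a median of -0.35, and exposed values of -0.66, -0.97, -1.12, -0.86, 0.09, -1.09, -1.07 and 2.71. Sample 8 was 8.00-fold over the control mean and samples 2, 3, 4, 6 and 7 lay below every control. Contig 1690, picked after its values were seen, held the highest departure of any member, 203-fold over the control mean in sample 8. It had a single spot on each array.

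Subgroup 6, with 7 members, was low in exposed sample 2, with a median of -1.99 and 6 low members, and high in sample 8, with a median of 1.1 and 4 high members. All 7 had an exposed SD under 0.8 without their farthest sample. Contig 5149, which had a single spot on each array, held the lowest departure in sample 2. Its controls lay between 3.96 and 5.27 with a median of 4.21, and exposed samples 1 to 8 measured 4.66, -3.66, 4.82, 4.44, 3.53, 4.47, 4.71 and 3.27. Sample 2 was 264-fold under the control mean and still well above background. Samples 5 and 8 also lay below all controls, sample 8 by 2.16-fold from the control mean and so counted as low. The other 5 lay among the controls. Contig 8296 had a narrow control range, from -0.48 to -0.03 with a median of -0.26, and exposed values of -0.17, -2.24, 0.09, -0.92, -0.10, -0.99, -0.16 and 0.52. It was 3.96-fold under the control mean in sample 2, below all controls in samples 4 and 6, and above them in samples 3 and 8. A further 192 contigs outside the members followed the profile of subgroup 6, 188 of them with a ratio too low to enter, and their control SD had a median of 0.90.

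Subgroups 7 and 8, with 5 members each, were low in exposed sample 4 together with one other sample. In subgroup 7 exposed sample 1 had a median of -1.78 with 4 low members and sample 4 one of -1.32 with 3. In subgroup 8 exposed sample 4 had a median of -1.95 with 4 low members and sample 2 one of -1.10 with 3. Their median pair correlations over controls were 0.03 and 0.13, near the 0.06 of all contigs.

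Contig 929 of subgroup 7 had controls between -0.70 and 0.09 with a median of -0.33 and exposed values of -1.18, -0.69, 0.49, -1.16, -1.17, 0.34, 0.90 and -0.93. Samples 1, 4, 5 and 8 were below all controls and samples 3, 6 and 7 above them, so that its exposed values lay on both sides of a narrow control range. Contig 3560 had controls between -0.55 and 0.05 with a median of -0.28 and exposed values of -1.31, -1.03, 0.18, -2.35, -1.24, -0.91, -0.09 and -1.57. It was below all controls in 6 exposed samples, most in sample 4 at 4.29-fold under the control mean, and above them in sample 3.

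Contig 5784 of subgroup 8 had controls between -4.94 and -4.12 with a median of -4.53. Its exposed values were -5.11, -5.52, -4.02, -6.48, -5.32, -4.40, -4.20 and -3.78, with samples 1 and 4 not well above background. Samples 1, 2, 4 and 5 were below all controls and samples 3 and 8 above them. Contig 6849 had controls between -0.70 and 0.11 with a median of -0.13 and exposed values of -0.65, -2.38, -0.59, -2.60, -1.30, -0.32, -1.02 and -0.76. No exposed sample exceeded the controls, and samples 2, 4, 5, 7 and 8 lay below all of them, sample 4 by 5.11-fold from the control mean.

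**Figure D5:**
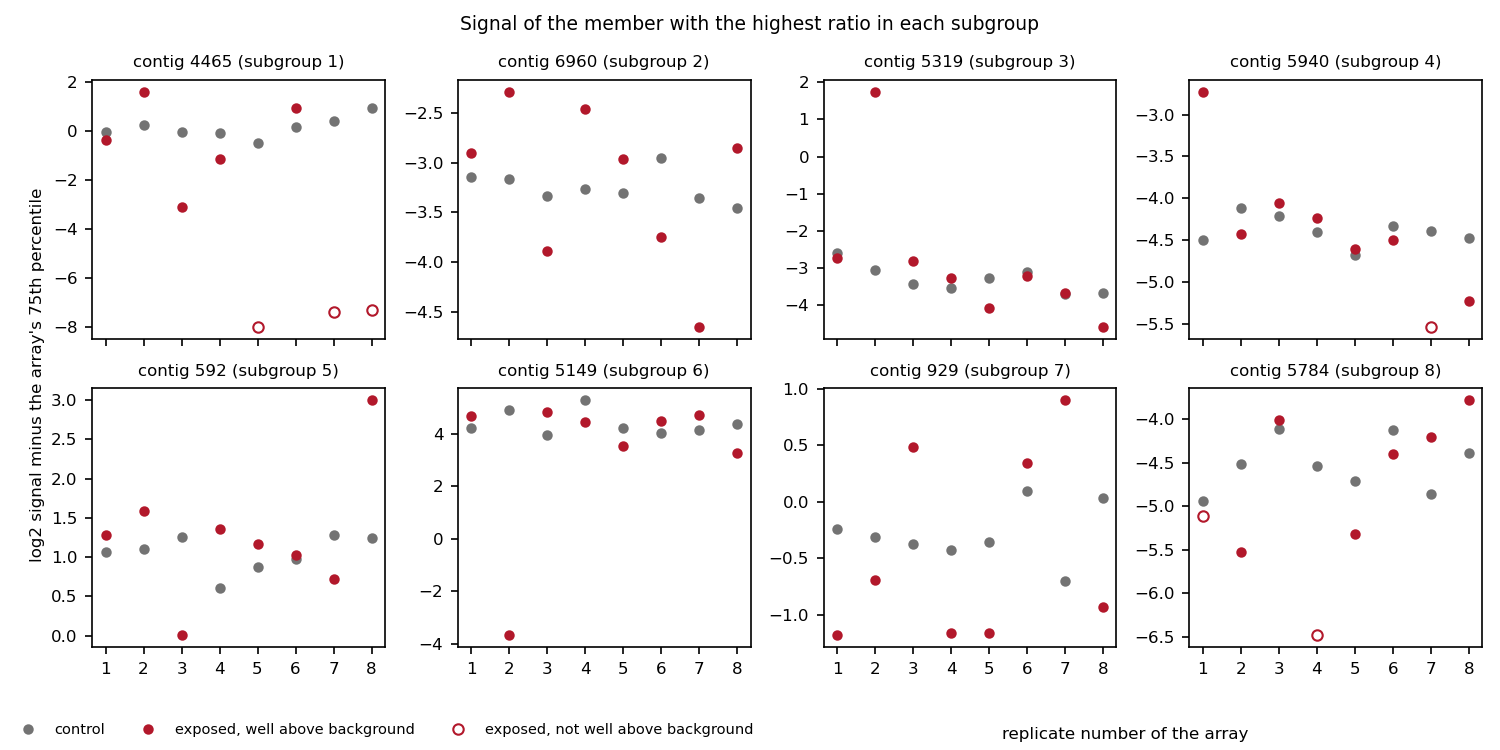
Signal of the member with the highest ratio in each of the 8 subgroups (vertical, log2 units relative to the array's 75th percentile, with a scale of its own in each panel) by replicate number (horizontal), for controls and exposed samples; open circles are exposed values not well above background. Contig 4465 lies at -7.99, -7.38 and -7.30 in exposed samples 5, 7 and 8, while contig 5319 stands apart in exposed sample 2, at 1.75.

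The remaining 11 members formed 7 small subgroups. Contigs 2061, 5146 and 6973 were farthest from the other exposed samples in sample 5, where they were 2.49, 3.77 and 2.72 log2 units over the control mean. Contigs 5818 and 6748 were lowest in sample 6, at -1.72 and -2.27, and contig 3081 in sample 3, at -2.99. Contig 5581 was high in 3 exposed samples, most in sample 6 with 2.43, and contig 8185 in sample 7 with 2.16. Contigs 2069, 6263 and 3799 were farthest from their exposed median in samples 2, 1 and 5. There they departed from the control mean by -1.28, -1.24 and 1.37. Contig 2069 was high in 3 exposed samples and low in 1, contig 6263 high in 1 and low in 1, and contig 3799 high in 2.

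Over all 8 subgroups, pairs of members within a subgroup had a median correlation of 0.53 over the 8 controls (2210 pairs), against -0.02 for pairs from different subgroups (7381 pairs). Most of the pairs within a subgroup came from subgroups 1 and 2, and for subgroups 4 to 8 taken singly the median over controls lay between 0.03 and 0.36. The corresponding values over the exposed samples, which formed the subgroups, were 0.85 and 0.10. The controls helped choose the members, so the values over controls are a description as well. By slide, the spread is a further description of the values that chose the members. On slide 1 the exposed SD lay above the control SD in 138 members, as in 64.2% of all contigs that could be chosen, and on slide 2 in 142 members, as in 76.3%, and with deviations taken within slides the members' ratio had a median of 3.04.

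The members were then compared between groups by their means, with limma's moderated test fitted on all 7245 contigs well above background in at least 4 samples of a group. None of the 150 members passed an adjusted p of 0.05 (limma, Benjamini-Hochberg adjustment over all contigs tested). In the background, 1.42% of contigs tested passed as higher in exposed samples and 3.55% as lower. At an unadjusted p under 0.05 there were 24 members, of which 23 were lower and 1, contig 5581, was higher, where 23.1% of all contigs tested passed. Since the members were chosen on these arrays for a wide spread, which enters the standard error, nothing is read from these counts. On average over the groups, 109 members were lower in exposed samples and 41 higher, and the median log2 difference was -0.25, against -0.06 over all contigs tested. The members' filter on control signal alone favours lower exposed values, so nothing is read from this direction. With another choice of 1 scaling value per array, its median, the counts over all contigs were 168 higher of 306 passing, against 103 of 360, and again no member passed.

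Among the leading members of the subgroups, 2 in each, the following 4 had the smallest p. Contig 6849 had a log2 difference of -0.96 ± 0.30 (SE, n = 8 and 8; limma adjusted p = 0.0739), with a 95% confidence interval from -1.60 to -0.32. Contig 3560 differed by -0.79 ± 0.28 (SE; limma adjusted p = 0.109), contig 6420 by -3.03 ± 1.18 (SE; limma adjusted p = 0.138) and contig 4465 by -3.23 ± 1.30 (SE; limma adjusted p = 0.150). All were below the control mean in 6 to 8 of the exposed samples, and none passed. The other 12 leading members of the subgroups had a limma adjusted p of 0.490 or more, among them contig 5149 at a log2 difference of -1.10 ± 0.95 (SE; limma adjusted p = 0.490). Its 264-fold departure in 1 sample enters both the difference and the SE.

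A term for unequal difference on the 2 slides had an unadjusted limma p under 0.05 in 37 members (24.7%), of which 34 were in subgroup 1, where the background was 5.74%. It passed the adjusted threshold in no member and in no contig tested (416 contigs at an unadjusted p under 0.05), so that no difference between slides was shown. The members were chosen for their spread over these same arrays, and nothing is read from their count. Exposed samples 5, 7 and 8, in which subgroup 1 was low, were all on slide 2, and the exposed arrays lay in row 1 on slide 1 and in row 2 on slide 2, so that slide, scan and row cannot be told apart from a difference between these samples. Exposed sample 6, on the same slide and in the same row, had a median of 0.96 in this subgroup. The part of slide, scan and row in these values was not tested.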

How the data were processed

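Each of the 16 samples had 1 array, labelled with Cy3. The deposited files are Agilent Feature Extraction output, version 10.7.1.1 per the file headers and 9.1 per the submitters' processing notes. Per the file headers, the processed signal is a linear intensity after background subtraction, with no normalization between arrays. A second deposited table, used as an alternative, holds log2 values centred by probe, made by the authors with a normalization not stated in the labels or headers. The files gave no unused columns of other samples (0).

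Signals were averaged over the spots of a probe as log2 values, and the 75th percentile over non-control probes of the array was subtracted. A probe counted as well above background where at least 50% of its spots were so flagged. The members and subgroups were chosen with earlier results of these data known. The named members are the 2 with the highest ratio in each subgroup of 5 or more, and those next to each threshold. No member passed the test, so none was named by it. Group means were tested two-sided in R 4.3.3 with limma 3.58.1 (lmFit, eBayes, no block) and Benjamini-Hochberg adjustment at 0.05 over 7245 probes, and the scripts were tested on simulated data. Other steps used Python 3.11.15 with scipy 1.17.1. Alternatives changed the scaling, the background correction (normexp, offset 50), the filter on dim probes, the measure of spread, the block, the array weights, the departure threshold and the samples included. For arrays, depth is signal over background, and precision is limited by the number of arrays.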

Additional observations from a re-analysis of the deposited data

Results flagged for a closer look

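Of 54 groups of 8 values examined, 11 had 1 sample whose gap to the nearest other exceeded Dixon's 95% critical value, a bound that chance passes in about 1 in 20 groups, or 2.7. The members were chosen for a wide spread among exposed samples, so this count is not comparable with chance, and the exposed values of members and subgroups below are a description from which nothing is read. Exposed sample 7 had 78.2% of probes well above background, and the next lowest exposed sample had 82.7%. Exposed sample 2 held 61 high members, and the next had 22. Subgroup 3 stood apart in both groups, with a median departure of 4.17 in exposed sample 2 (next 0.087) and of 0.76 in control 1 (next 0.19). Subgroup 5 did so as well, at 2.39 in exposed sample 8 (next -0.062) and 0.56 in control 4 (next 0.00067). Among the named members, contig 5319 had a log2 signal of 1.75 in exposed sample 2 (next -2.72) and contig 5084 one of 2.74 (next -1.35). Contig 5149 had -3.66 in the same sample, where the next lowest was 3.27. Contig 3758 stood apart in exposed sample 1 at -0.20 (next -2.69) and contig 6066 in exposed sample 8 at 2.71 (next 0.087).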

How the results depend on the processing

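Membership depended on the background correction, the filter and single samples. Of the 150 members, 131 were found again with scaling to the median, 126 with quantile normalization, 125 in the authors' deposited values and 113 with deviations within slides. Only 79 were found again with normexp, which kept 13 of 52 dim, 27 of 53 middle and 39 of 45 bright members. Well above background on all 16 arrays kept 98, and no filter kept 72. Leaving out 1 sample kept 75 to 143. The 75 were without control 2, and all 75 contigs that then entered were lowest in exposed sample 2. In alternatives chosen after seeing the data, 72 were found without exposed samples 5, 7 and 8, and 99 without controls 1 and 2 and exposed samples 2 and 8. The median ratio was 2.94 with quantile normalization, 2.94 in the authors' values, 2.64 with normexp, 2.90 with the median absolute deviation, 2.36 without exposed samples 5, 7 and 8, and 2.86 to 3.35 without 1 sample.

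Members passing the test numbered 1 with the slide as a block (contig 5921), 1 on slide 2 alone (contig 5921), 7 with array weights, and 0 to 12 without 1 sample: 12 without exposed sample 2, 3 without sample 3, 1 without sample 4, 3 without sample 6 and 2 without sample 8. Same-numbered samples of the 2 groups lay on the same slide and in the same column of it, in different rows. The labels do not say what else the replicate numbers share. Correlations of the deviations of same-numbered samples ran from -0.219 to 0.479 and were over 0.1 in 4 of 8, so that pairing was not taken as shown. With the replicate block 1 member passed (contig 6849, limma adjusted p = 0.0314) and 411 contigs in all. Over all contigs, 360 passed, against 26 on slide 1, 75 on slide 2, 574 with array weights and 140 to 674 without 1 sample. That count moved by over 1.5 times without control 2 (178), 6 (140), 7 (204) or 8 (225) and without exposed sample 2 (674), 5 (184) or 8 (226). Contigs 6849, 3560, 6420 and 4465 kept the sign of their difference in all 25 alternatives. For other contigs the sign was not compared over the alternatives. Contig 6849 passed in 3, contigs 3560 and 6420 in 1 each and contig 4465 in none, their adjusted p spanning 0.0314 to 0.597, 0.040 to 0.637, 0.0441 to 0.783 and 0.0543 to 0.801 in that order (limma).

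At over 2 log2 units there were 30 high and 166 low departures. A clustering distance of 0.3 gave 8 subgroups with 110 members, the largest of 41, but not the same subgroups: at most 3 of the 12 members of subgroup 4 and 3 of the 5 of subgroup 7 stayed together. Subgroup 4 kept 7 of 12 together with quantile normalization and 6 in the authors' values, and subgroup 1 kept 52 of 54 in both. The causes of these changes were not tested. Values not well above background limit how far the lowest departures can be measured.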

Other observations

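The 75 contigs that replaced members when control 2 was left out were all lowest in exposed sample 2, with a median departure of -3.55 log2 units, and control 2 itself lay at a median of -4.88, so that the low value was shared by the same-numbered samples of both groups. Of these contigs, 39 were not well above background in all controls when control 2 was counted. Control 2 and exposed sample 2 lay in the same column of slide 1, in different rows. The cause of their shared low value was not tested. Without control 1, 38 contigs entered, of which 27 were highest in exposed sample 2, and the 38 had median departures of 2.07 in that sample and 1.66 in control 1. The 67 contigs outside the members that were low in each of exposed samples 5, 7 and 8 had a median exposed SD of 0.56, under the threshold of 0.8.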
